A study of Rattus norvegicus with 6 samples.

Results

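The alpha subunits 2 to 6 of the GABA-A receptor, encoded by Gabra2, Gabra3, Gabra4, Gabra5 and Gabra6, were followed across 6 rat tissue pools. They were taken by gene name from the features of the array, 5 of 26419, and each gene had 1 feature of 5 probes. Gabra6 was read by the sequence NM_021841, Gabra4 by NM_080587, Gabra5 by NM_017295, Gabra3 by NM_017069 and Gabra2 by the predicted transcript XM_223378. The alcohol group held 3 pools from male Sprague-Dawley rats that received 40% alcohol through a gastric tube, 15 ml per kg. The brine group held 3 pools from such rats that received brine instead, which the protocol calls saline. All rats were 8 to 10 weeks old, weighed 240 to 260 g and had fasted for 12 h, and each pool mixed tissue labelled as cerebellum from 3 rats. The labels name no interval between dosing and dissection, and the spread among the rats within a pool cannot be seen, so that errors and p-values measure the spread between pools only. Every level is the log2 of an RMA intensity, a probe-set brightness after background correction and array equalisation, and levels were compared between pools within a gene, never between genes.

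The GABA-A receptor is a chloride channel of 5 subunits that carries most fast inhibition in the brain. A usual receptor joins alpha and beta subunits with a gamma or delta subunit, and the alpha subunit helps to set where the receptor sits and how it answers GABA, benzodiazepines and neurosteroids. Alcohol is known to enhance GABA-mediated inhibition, and cerebellar granule cells have long been studied for it because they carry tonic inhibition through alpha6 and delta receptors. A point mutation in Gabra6 is known from a rat line bred for sensitivity to alcohol.

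Both groups held a pool that stood apart in cell type markers. Gabrd, a granule cell receptor gene, had levels of 13.53, 7.94 and 13.44 in alcohol pools 1, 2 and 3 and of 8.84, 13.45 and 13.55 in brine pools 1, 2 and 3. Alcohol pool 2 and brine pool 1 thus lay lowest in a marker that defines the labelled tissue. With each gene set to its own 6-pool mean, the median over 19 granule cell genes was 0.72, -1.36 and 0.77 log2 units in the alcohol pools and -1.51, 0.92 and 0.70 in the brine pools, and 17 of the 19 were lower in these 2 pools than in any other. Of 23 brainstem and hindbrain genes measured, 16 were higher in the same 2 pools, with medians on that scale of -0.79, 0.75 and -0.45 in the alcohol pools and 1.52, -0.64 and -0.51 in the brine pools. Of 14 Purkinje cell genes 12 were lower in them, of 15 astrocyte and Bergmann glia genes 9 were higher and 4 lower, and of 12 interneuron genes of the molecular layer and Golgi cells 4 were higher and 5 lower. All 19 oligodendrocyte genes were higher there too, with medians of 1.48 in alcohol pool 2 and 1.36 in brine pool 1. Of 17 forebrain genes 2 were higher in the 2 pools, 4 were lower and 11 overlapped, with medians of -0.28 in alcohol pool 2 and -0.18 in brine pool 1. An intensity of 50 (5.64 on the log2 scale) is the floor of the value table that the authors deposited, and a level below it is called a bound here. Counts and medians of the marker lists use levels under the floor as measured. Of the 23 brainstem and hindbrain genes, 1 reached the floor in every pool and 5 in none, so some of the 16 rest on bounds. The part of these markers in the subunit levels was not tested, and each group comparison is given with and without the 2 pools. In tissue pools, fewer cells of a type and less RNA per cell cannot be told apart.

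All 5 alpha subunits followed this division of the pools, in opposite directions. Gabra6 and Gabra4 were lower in alcohol pool 2 and brine pool 1 than in every other pool, whereas Gabra5, Gabra2 and Gabra3 were higher in both than in every other pool. Of all features, 48.5% did not overlap between these 2 pools and the other 4, with 23.4% higher and 25.1% lower in the 2 pools, so that the count of 5 is to be read against a common pattern. The size of the step differed between the subunits: it was at least 4 log2 units for Gabra6 and Gabra5, as for 0.163% of features, at least 1 unit for Gabra2 too, as for 8.29%, and under 1 unit for Gabra4 and Gabra3.

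**Figure D1:**
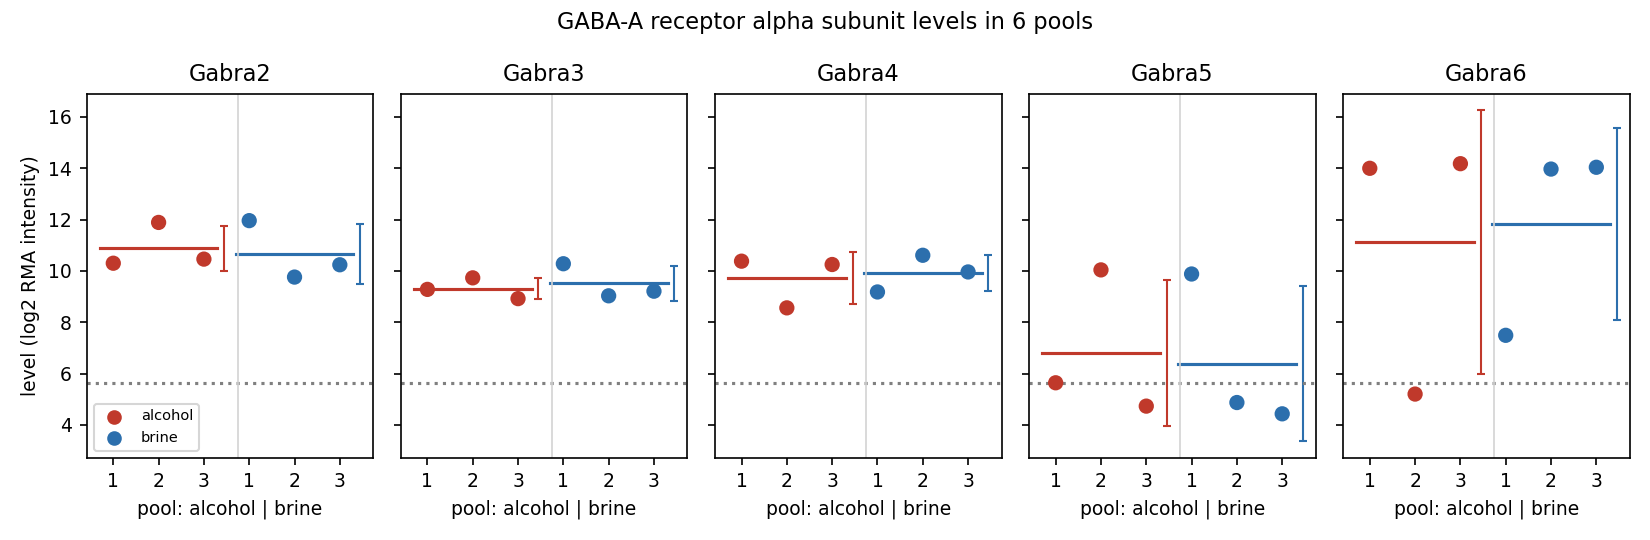
Level of each alpha subunit (y axis, log2 RMA intensity) in alcohol pools 1 to 3 (red, left) and brine pools 1 to 3 (blue, right) of each panel. Horizontal lines are group means, bars beside them are the SD over 3 pools, and the dotted line is an intensity of 50. In every panel alcohol pool 2 and brine pool 1 lie on one side of the other 4 pools; heights are not comparable between genes.

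Gabra6 encodes the subunit that is largely restricted to granule cells in the cerebellum, where it forms synaptic receptors with gamma and extrasynaptic receptors with delta subunits. Its intensity was 16361.6, 36.7 and 18593.2 in alcohol pools 1, 2 and 3 and 179.3, 16042.5 and 16829.0 in brine pools 1, 2 and 3. Alcohol pool 2 lay under the floor and brine pool 1 above it, at a log2 level of 7.49. The other 4 pools were within 0.21 log2 units of each other. Relative to the lowest of those 4, brine pool 1 was 89.5-fold lower and alcohol pool 2 at least 320.8-fold lower. With levels under 50 set to 50, only 1 of 26419 features, Neurod1, had a wider range over the 6 pools than the 8.54 log2 units of Gabra6, and the median range of all features was 0.58. Gabrd too was higher in brine pool 1 than in alcohol pool 2. Of the 19 granule cell genes, 11 were higher in alcohol pool 2 and 8 in brine pool 1, but by unequal amounts. Alcohol pool 2 minus brine pool 1 ran from 0.01 to 0.32 log2 units for the 11 and from -0.04 to -1.38 for the 8. The widest was that of Neurod1, whose level in alcohol pool 2 is a bound.

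Gabra4 encodes a subunit that pairs with delta in extrasynaptic receptors of thalamus and dentate gyrus. It followed the same division with a smaller step. Its intensity was 1329.1, 376.7 and 1217.5 in the alcohol pools and 580.9, 1562.8 and 998.0 in the brine pools. Alcohol pool 2 was lowest and brine pool 1 next, 1.72-fold below the nearest of the other 4, and these 4 spanned 0.65 log2 units. The order of the 2 low pools was the same for Gabra4 and Gabra6, with brine pool 1 above alcohol pool 2.

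Gabra5, known from extrasynaptic receptors of hippocampal pyramidal cells, had the opposite pattern. Its intensity was 50, 1049.5 and 26.5 in the alcohol pools and 939.4, 29.3 and 21.5 in the brine pools. It was plainly above the floor in alcohol pool 2 and brine pool 1, at the floor in alcohol pool 1 and under it in the other 3. Brine pool 1 was 18.8-fold and alcohol pool 2 21.0-fold above alcohol pool 1, and against the 3 pools under the floor no closer statement than a bound can be made. The 2 high pools differed from each other by 0.16 log2 units.

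The promoters of these 2 genes with the widest steps are shown because they moved in opposite directions, as the 250 bases before the gene start in the RefSeq table of the build GRCr8, 5′ to 3′ on the gene's strand. Gabra6 lies at chr10:27327235-27327484 and Gabra5 at chr1:117516607-117516856, both on the minus strand. Capitals mark TTGGC on either strand (GCCAA on the printed one), the core motif of nuclear factor I, a regulator of granule neuron genes, and CANNTG, the E-box bound by basic helix-loop-helix factors such as Neurod1.
Gabra6: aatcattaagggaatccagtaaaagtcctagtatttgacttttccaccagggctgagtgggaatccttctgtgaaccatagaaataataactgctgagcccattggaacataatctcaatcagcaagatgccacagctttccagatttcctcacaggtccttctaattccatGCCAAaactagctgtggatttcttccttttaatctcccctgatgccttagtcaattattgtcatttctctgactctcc
Gabra5: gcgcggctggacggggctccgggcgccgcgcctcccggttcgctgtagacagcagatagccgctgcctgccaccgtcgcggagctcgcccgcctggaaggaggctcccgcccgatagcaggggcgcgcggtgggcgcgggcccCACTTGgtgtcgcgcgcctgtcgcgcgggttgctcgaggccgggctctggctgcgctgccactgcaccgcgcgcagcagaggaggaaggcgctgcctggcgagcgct
The Gabra6 window held 1 TTGGC match, starting 78 bases before the gene start, and no CANNTG. The Gabra5 window held 1 CANNTG, starting 107 bases before the gene start, and no TTGGC. Over 33465 rat windows of the same length, 40.3% held TTGGC and 65.5% held CANNTG on either strand, and the matches in the 2 members do not overlap. Base composition set the genes apart more clearly than the motifs. The Gabra6 window had 41.2% G and C with 0 CpG dinucleotides, and the Gabra5 window 76.4% with 37, against medians of 51.2% and 5 over all windows. The division did not follow composition among all members with a window: Gabra4, lower in the 2 pools, had 71.6% and 33 CpG with 1 TTGGC, and Gabra3, higher in them, had 40.4% and 0 CpG with neither motif. Of the 5 members, 4 matched the promoter table; Gabra2 did not.

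Gabra2, which encodes a subunit of synapses on the axon initial segment of forebrain neurons and is also found in spinal cord, was well above the floor everywhere. Its intensity was 1261.2, 3785.5 and 1410.7 in the alcohol pools and 3974.9, 865.1 and 1206.3 in the brine pools. Alcohol pool 2 and brine pool 1 were nearly level, 0.07 log2 units apart, and at least 2.68-fold above the other pools. Those 4 spanned 0.71 log2 units.

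Gabra3, a subunit typical of monoamine neurons and other brainstem neurons, had an intensity of 621.3, 847.3 and 484.8 in the alcohol pools and 1240.7, 523.2 and 591.4 in the brine pools. Brine pool 1 was highest and alcohol pool 2 next, only 1.36-fold above the nearest of the rest. The gap between these 2 pools, 0.55 log2 units, was wider than the 0.36 spanned by the other 4. Of the 23 brainstem and hindbrain genes, 7 were higher in alcohol pool 2 than in brine pool 1 and 16 were lower. This split uses levels under the floor as measured, and 5 of the 23 were under it in every pool.

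The comparison of alcohol with brine asks whether acute intoxication was accompanied by other subunit levels. None of the 5 subunits differed between the groups beyond the spread between pools, and the groups overlapped for all 5. Of all features, 8.76% had groups that did not overlap. Over all features, limma called 0 of 26419 at an adjusted p under 0.05 (0.00%) and 1030 at an unadjusted p under 0.05 (3.90%), of which 0 were alpha subunits. Gabra6 averaged 11.13 ± 5.14 in alcohol pools and 11.83 ± 3.76 in brine pools (SD, n = 3 each), a log2 difference of -0.71 with a 95% confidence interval from -7.80 to 6.39 (limma, adjusted p = 1.00). Gabra5 averaged 6.80 ± 2.84 with alcohol and 6.39 ± 3.03 with brine (SD, n = 3 each), a difference of 0.41 (-4.22 to 5.04). Both differences use levels under the floor as measured; with such levels set to 50 they were -0.56 and 0.05. These intervals admit changes of many-fold in either direction, so the 6 arrays together say little about a response of either gene.

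For the other subunits the 6-array intervals were narrower. Gabra2 averaged 10.88 ± 0.87 in alcohol pools and 10.65 ± 1.16 in brine pools, a difference of 0.23 (-1.42 to 1.89). Gabra3 averaged 9.31 ± 0.40 with alcohol and 9.51 ± 0.67 with brine, a difference of -0.20 (-1.14 to 0.75). Gabra4 averaged 9.73 ± 1.02 with alcohol and 9.92 ± 0.71 with brine (SD, n = 3 each throughout), a difference of -0.19 (-1.62 to 1.24). The adjusted p was 1.00 for each in limma, and in each group the widest deviation came from the pool that stood apart. The median difference was -0.19 over the 5 members and -0.02 over all features.

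Without alcohol pool 2 and brine pool 1 the group comparison became much tighter. Within these 4 arrays limma again called 0 features (0.00%), and 2121 (8.03%) had an unadjusted p under 0.05, of which 0 were alpha subunits. Gabra6 had an intensity of 16361.6 and 18593.2 with alcohol and 16042.5 and 16829.0 with brine, a log2 difference of 0.09 with an interval from -0.35 to 0.52 (limma, adjusted p = 0.916). In these pools a Gabra6 change of 1 log2 unit in either direction lay outside the interval. Gabra4 differed by 0.03 (-0.67 to 0.73; adjusted p = 0.988 in limma) and Gabra3 by -0.02 (-0.55 to 0.51; adjusted p = 0.988), with overlapping groups for all 3 genes.

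Gabra2 was the member whose groups did not overlap among the 4 arrays. Its levels were 10.30 and 10.46 in alcohol pools 1 and 3 and 9.76 and 10.24 in brine pools 2 and 3, a difference of 0.38 (-0.21 to 0.98; limma, adjusted p = 0.724). Both alcohol levels lay above both brine levels for 17.7% of all features, and the groups did not overlap for 39.7%, so 1 member in 5 is no more than the background. Between the 2 pools that stood apart the order was the other way, with 11.89 in alcohol pool 2 and 11.96 in brine pool 1. Gabra5 was at the floor in alcohol pool 1 and under it in the other 3 arrays, and no fold is given for it there.

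**Figure D2:**
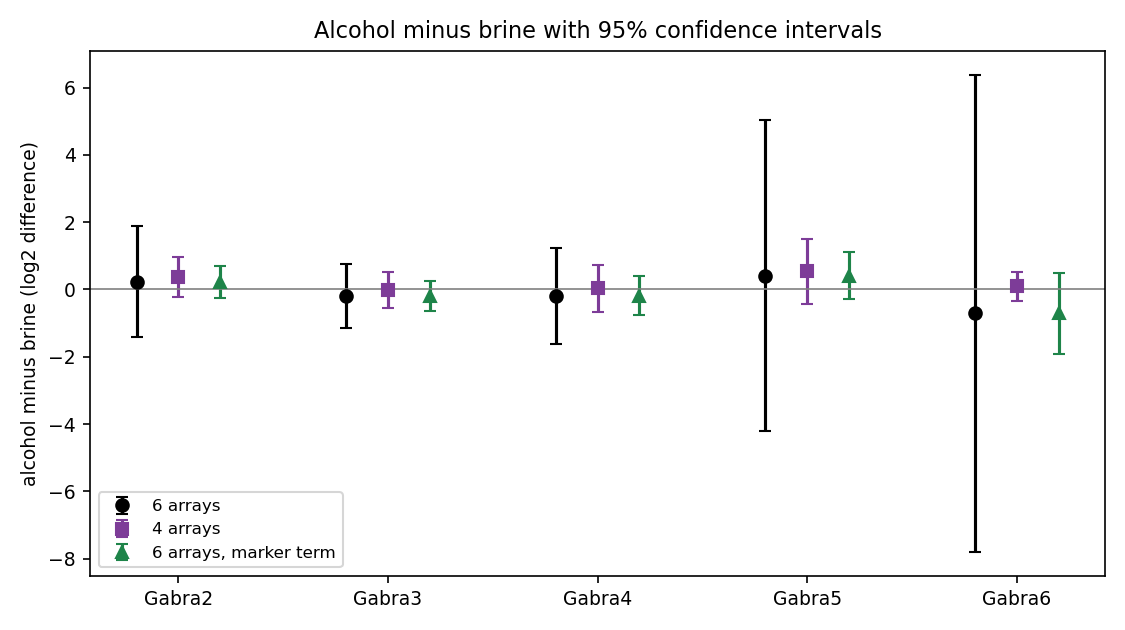
Alcohol minus brine for each alpha subunit (y axis, log2 difference; points are limma estimates, bars 95% confidence intervals). Circles use all 6 arrays and squares the 4 arrays without alcohol pool 2 and brine pool 1. Triangles use all 6 arrays with a term for these 2 pools. Every interval includes 0, and that of Gabra6 runs from -7.80 to 6.39 on 6 arrays and from -0.35 to 0.52 on 4. Levels under the floor are used as measured, which concerns Gabra5 and, in alcohol pool 2, Gabra6.

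Between alcohol pool 2 and brine pool 1 themselves, with 1 pool on each side and no test, Gabra6 and Gabra4 were lower in the alcohol pool, by 0.62 log2 units for Gabra4 and by at least 3.59-fold for Gabra6, whose alcohol level is a bound. Gabra3 was lower by 0.55 and Gabra2 by 0.07, while Gabra5 was higher by 0.16. Over the marker lists the same difference had a median of 0.04 for granule cell genes and -0.33 for brainstem and hindbrain genes, and their part in the subunit differences was not tested.

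With a term for the 2 pools added to the 6-array model, the estimates were those of the 6 arrays with smaller errors. The estimates could not change, since each group held 1 of the 2 pools. The difference was -0.71 (-1.91 to 0.50) for Gabra6, -0.19 (-0.77 to 0.39) for Gabra4, 0.41 (-0.29 to 1.11) for Gabra5, 0.23 (-0.24 to 0.70) for Gabra2 and -0.20 (-0.65 to 0.25) for Gabra3. The adjusted p values lay between 0.664 and 0.817 in limma, with 0 features called (0.00%) and 2502 at an unadjusted p under 0.05 (9.47%), of which 0 were alpha subunits. The term gives both pools 1 shared shift, and levels under the floor were used as measured. For Gabra6 the 2 pools differed by 2.29 log2 units, with alcohol pool 2 under the floor, while the difference on the 4 other arrays was 0.09.

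The other subunits of the receptor family were read in the same pools, and their levels divided these in both directions. Of 13 such genes, beta, gamma, delta, epsilon, theta, pi and rho, 8 reached the floor in every pool and 2 in none. Whether each of them joins alpha subunits in this tissue was not tested. The 2 that never reached the floor were rho genes. In alcohol pool 2 and brine pool 1, 4 of the 13 were higher than in all other pools, 5 were lower and 4 overlapped. All rho genes were among those that overlapped. Over all features, 23.4% were higher and 25.1% lower. These counts use levels under the floor as measured. Between alcohol and brine, 0 of 13 passed limma's threshold in either direction and 0 had an unadjusted p under 0.05, with 8 higher and 5 lower and a median difference of 0.02, against -0.02 over all features.

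GABA-A subunit genes lie in groups on the chromosomes, and the neighbours of the alpha genes did not always move with them. By the RefSeq table, which served here only for neighbourhood within 1000 kb, Gabrb2 lies near Gabra6 on chromosome 10. Gabrb2, the beta subunit common in granule cells, had levels of 12.88, 10.70 and 12.84 in the alcohol pools and 11.14, 12.56 and 12.66 in the brine pools. It was lower in the same 2 pools as Gabra6, with a gap to the nearest other pool of -1.42 log2 units, while that of Gabra6 was -6.48 with brine pool 1 as the nearer pool.

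Chromosome 14 carries Gabra2 and Gabra4 together with Gabrb1 and Gabrg1, and within this group the directions parted. Gabrg1, a gamma subunit found in glia and in some brainstem and amygdala neurons, had levels of 10.35, 11.21 and 9.87 in the alcohol pools and 11.10, 9.55 and 9.89 in the brine pools, higher in the same 2 pools as Gabra2. Gabrb1 had levels of 10.74, 10.43 and 10.56 in the alcohol pools and 10.63, 10.57 and 10.37 in the brine pools, with no division. Gabra4, low in the 2 pools, thus went the opposite way to Gabra2 and Gabrg1.

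On chromosome 1, Gabrg3 lies near Gabra5 and encodes a gamma subunit. It had levels of 6.82, 7.64 and 7.01 in the alcohol pools and 8.48, 6.72 and 6.82 in the brine pools, higher where Gabra5 was.

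On the X chromosome, Gabre and Gabrq lie near Gabra3 and encode the epsilon and theta subunits of monoamine neurons. Gabrq had levels of 4.27, 5.88 and 4.39 in the alcohol pools and 6.89, 4.93 and 4.61 in the brine pools, above the floor in alcohol pool 2 and brine pool 1 only. Gabre reached the floor in brine pool 1 alone, at 6.14, with 5.19 in alcohol pool 2 and 4.51 to 4.81 elsewhere. All 3 genes of this group were highest in brine pool 1. Gabra3 and Gabrq were next highest in alcohol pool 2, where the level of Gabre is a bound.

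**Figure D3:**
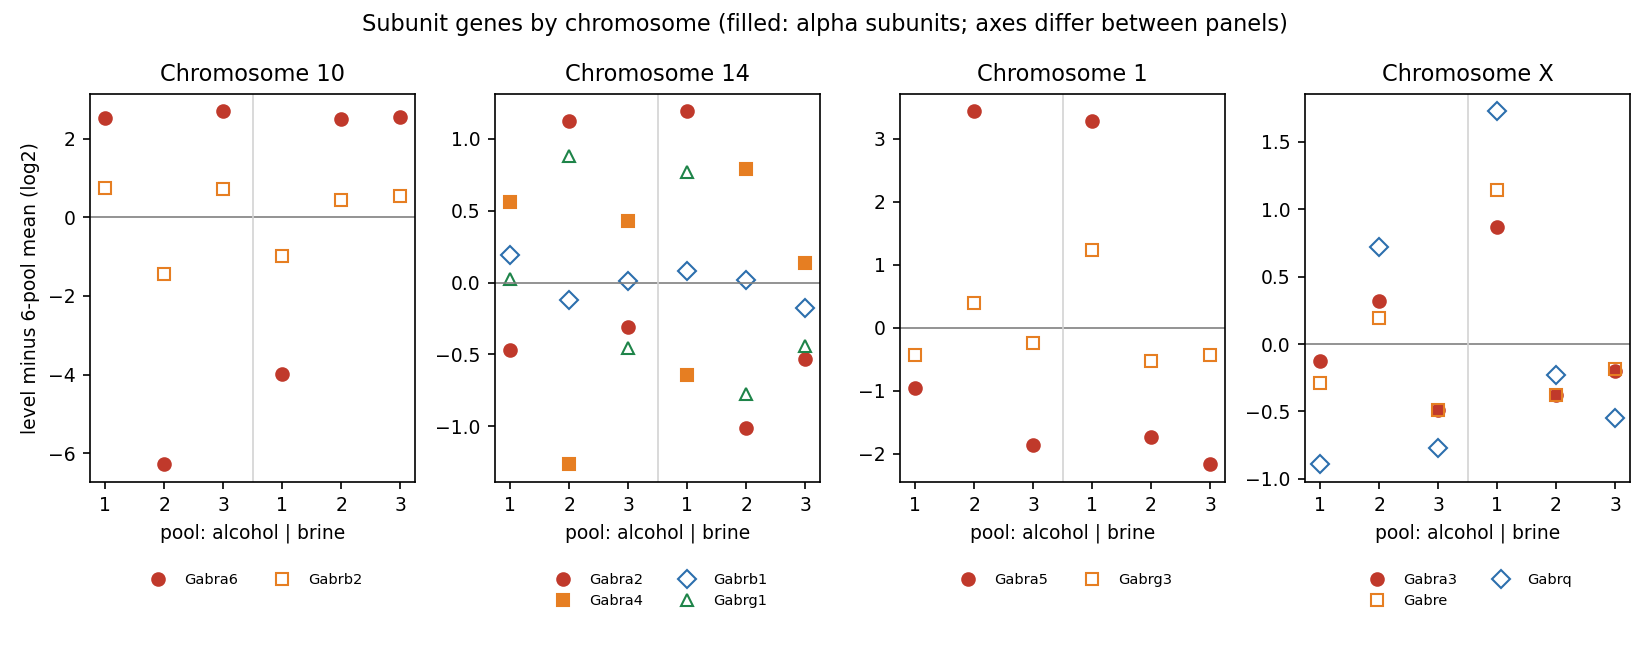
Level of each subunit gene minus its own 6-pool mean (y axis, log2 units; axes differ between panels) in alcohol pools 1 to 3 and brine pools 1 to 3, by chromosome. Filled symbols are alpha subunits and open symbols their neighbours; on chromosome 10 Gabra6 and Gabrb2 are low in alcohol pool 2 and brine pool 1, whereas on chromosome 14 Gabra2 and Gabrg1 are high there, Gabra4 is low and Gabrb1 shows no division.

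Genes of proteins that cluster and move GABA-A receptors were read in the same pools. All 24 of these genes that were measured reached the floor in every pool, and their median difference between alcohol and brine was -0.03, with 10 higher, 14 lower, 0 past limma's threshold in either direction and 0 at an unadjusted p under 0.05. Gabarapl1, of the family of GABA-A receptor-associated proteins, had levels of 14.13, 14.56 and 14.07 in the alcohol pools and 14.31, 13.77 and 13.61 in the brine pools, a difference of 0.36 (SE 0.26; adjusted p = 1.00 in limma). Zdhhc3, which palmitoylates gamma subunits, differed by -0.17 (SE 0.16), and Mdga1, which binds neuroligin, by -0.32 (SE 0.26). Maged1 differed by -0.18 (SE 0.16). Zdhhc3 was lower in all 3 alcohol pools than in any brine pool, as was Maged1, and 4.36% of all features were lower in that way. The 2 pools that stood apart were higher than the rest for 9 of the 24 and lower for 7, against 23.4% and 25.1% of all features.

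The genes whose profile over the 6 pools was nearest to each alpha subunit were sought among 10519 named genes with a mean level above the median of all features. Likeness was the root mean square difference, over 6 arrays, between levels set to each gene's own mean, and levels under the floor were used as measured. Nearest to Gabra6 were Neurod1, a granule neuron transcription factor (0.36), and 2 Purkinje cell genes, Ppp1r17 (0.56) and Pcp2 (0.59). Neurod1 had levels of 14.21, 5.41 and 14.28 in the alcohol pools and 6.79, 14.30 and 14.39 in the brine pools. Only 1 of the 10519 genes lay within 0.5 log2 units of Gabra6, and this was Neurod1.

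Gabra5 had 1 of these genes within 0.5, Adhfe1, a mitochondrial alcohol dehydrogenase family member that acts on hydroxybutyrate (0.31). Adhfe1 had levels of 7.80, 12.15 and 7.42 in the alcohol pools and 11.81, 7.64 and 6.84 in the brine pools. Next came Meis2, a homeobox factor (0.58), with 6.46, 11.04 and 6.90 in the alcohol pools and 11.69, 5.91 and 6.66 in the brine pools, and 6330403K07Rikl (0.59). The mean level of Gabra5 itself, 6.60, was under the limit set for the genes compared. With no limit on the mean level, a setting added after seeing the data, 6 of 18966 genes lay within 0.5 of Gabra5. Nearest was Cabp7, a calcium-binding protein (0.29), followed by Adhfe1. The serotonin transporter Slc6a4, a hindbrain marker looked up by name, ranked 5 (0.43). Slc6a4 was under the floor in every pool except alcohol pool 2 and brine pool 1, so its match rests on those 2 and on bounds elsewhere. Neurod1 was again the 1 gene within 0.5 of Gabra6.

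The other members had far more near neighbours, and a near match says correspondingly less. Within 0.5 log2 units lay 1091 genes for Gabra2, 1983 for Gabra4 and 4976 for Gabra3. The root mean square deviation of each member around its own mean was 0.84 for Gabra2, 0.72 for Gabra4 and 0.46 for Gabra3. A gene with no change over the pools therefore counts as near to Gabra3. Nearest to Gabra2 were Extl1, a heparan sulfate glycosyltransferase (0.12), Sqle, an enzyme of cholesterol synthesis (0.13), and Rhbdl3 (0.13). Nearest to Gabra4 were Ust, a sulfotransferase (0.07), Celf5, an RNA-binding protein (0.10), and Ttll12 (0.11). Nearest to Gabra3 were Fign (0.04), Lama4, a laminin chain (0.08), and Hmox1, heme oxygenase (0.09).

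**Figure D4:**
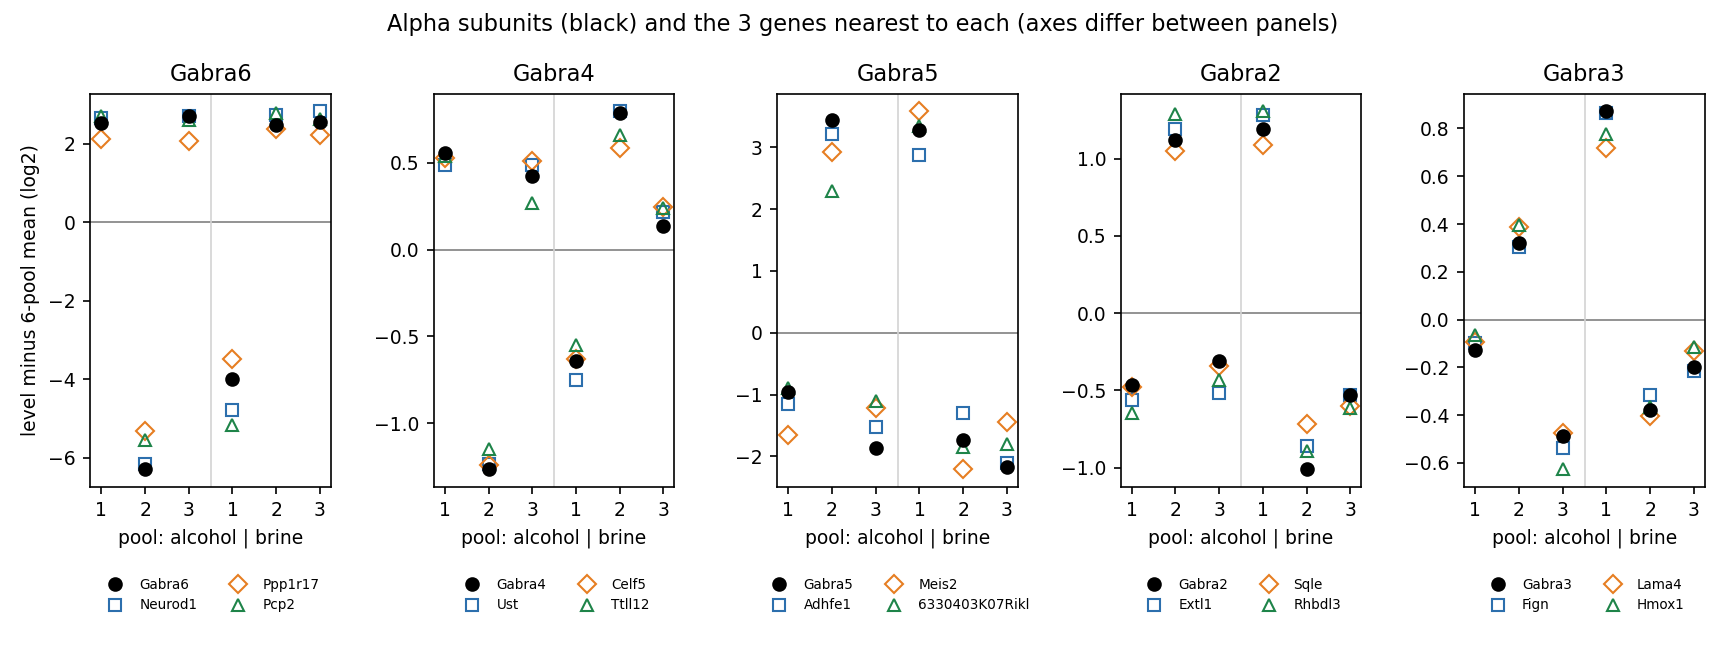
Level of each alpha subunit (black) and of the 3 genes nearest to it (open symbols) minus each gene's own 6-pool mean (y axis, log2 units; axes differ between panels), in alcohol pools 1 to 3 and brine pools 1 to 3. Gabra6 and Neurod1 fall together in alcohol pool 2 and brine pool 1 (root mean square difference 0.36), and Gabra5 and Adhfe1 are high together in them (0.31).

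Among the members themselves, the root mean square difference was smallest between Gabra2 and Gabra3 (0.48) and largest between Gabra5 and Gabra6 (6.06). It depends on the size of the steps. A profile with no change would lie at 0.46 from Gabra3, nearer than Gabra2 does. Gabra2, Gabra3 and Gabra5 lay on the same side of their own means in all 6 pools, and so did Gabra4 and Gabra6. Each of the 3 lay on the opposite side to each of the 2 in all 6.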

How the data were processed

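Each of the 6 arrays, single-colour NimbleGen arrays labelled with Cy3 per the labels, was hybridised with RNA of 1 tissue pool. The authors deposited a linear RMA intensity for each sequence; the submitters' processing notes name RMA and no version of it. Scanner software and a genome build are not given in the sources used. Leaving out 1 entry that pools 5651 probes of random sequence, 26419 of the 26420 entries per file were used as features. Median intensity lay between 213.2 and 232.8, and random probes between 23.3 and 25.5; the number of arrays limits the precision. The deposited value table holds exactly the features at an intensity of 50 or more on at least 3 arrays, which set the floor.

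The deposited intensities were log2-transformed and not normalized again. Names came from gene identifiers matched to RefSeq genes of GRCr8 for 20628 features, otherwise from accessions, the files' symbols or descriptions; the probes' sequences were not used here, so signal shared between related subunits was not tested. Groups were compared over all features with limma 3.58.1 in R 4.3.3 (lmFit, eBayes, two-sided, Benjamini-Hochberg over all features, threshold 0.05). The fit was checked on simulated data. For the model with group only, the simulated arrays held no division of the pools, so that check does not cover the division seen here. An exact permutation test of 3 against 3 cannot go below 0.1. Plots were drawn with matplotlib 3.10.9, and tables made with numpy 2.4.6 and pandas 2.3.3 in Python 3.11.15. The members, gene lists, naming rules and the choice of the 2 pools that stand apart were made with earlier results of these data known. Genes named are the members, their neighbours in the subunit gene groups, the 3 nearest profiles of each member, up to 4 genes with the smallest p in the clustering list (at 50 or more everywhere), and defining markers; some genes under these rules are not reported here. Of the list of other subunits that rule gave Gabrp, Gabrg1, Gabrg3 and Gabrb1. Gabrp differed by 0.18 (SE 0.20). Alternatives were the value table, median centring, quantile normalization, a filter on dim features, each pool left out, the replicate number as a block, eBayes with trend and robust options, the 4 arrays without alcohol pool 2 and brine pool 1, and a term for these 2 pools; setting levels under 50 to 50 was chosen after seeing the data.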

Additional observations from a re-analysis of the deposited data

How the results depend on the processing

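Under the 15 settings tried for each subunit, 0 of 75 values passed limma's threshold, and 62 kept the direction of the 6-array estimate. Part of the 62 was fixed in advance. The replicate block, the term for alcohol pool 2 and brine pool 1 and the eBayes options cannot change an estimate in this balanced design. The value table and the filter on dim features leave the members' levels as they were. Of the 13 that turned, 2 came from the 4 arrays without alcohol pool 2 and brine pool 1, where Gabra4 was 0.03 and Gabra6 0.09, and 11 from leaving out 1 pool. Without 1 pool the difference ranged from -0.27 to 0.89 for Gabra2, from -0.43 to 0.19 for Gabra3, from -0.56 to 0.39 for Gabra4, from -1.21 to 2.15 for Gabra5 and from -2.88 to 2.26 for Gabra6. For all but the lower end of Gabra3, which came without brine pool 2, these ends came from leaving out alcohol pool 2 or brine pool 1, which leaves the other of these 2 pools in 1 group alone. Limma called 0 features under every setting, with 504 to 2502 at an unadjusted p under 0.05. With the replicate number as a block, the estimates were the same (Gabra6 -0.71, Gabra5 0.41, Gabra2 0.23, Gabra3 -0.20, Gabra4 -0.19), with 0 features called. They could not differ, since each number holds 1 pool of each group. Only the errors can change, and that of Gabra2 went from 0.68 to 0.78. Deviations from the group means correlated by -0.63 for the pools numbered 1, -0.68 for those numbered 2 and 0.60 for those numbered 3. Alcohol pool 2 and brine pool 1, which carry different numbers, correlated by 0.84. The signs follow the division of the pools, so they cannot show whether pools of the same number were handled as pairs. Averaging all features of a gene gave no separate value, since each member had 1. Levels under the floor limit Gabra5 in 3 pools and Gabra6 in 1.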
